A study of Mus musculus with 2 samples.

Results

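The genes described here are 32 genes of sterol and fatty acid synthesis and of its control, chosen by function, out of 36980 genes with a symbol in the deposited table. They were read in RNA from 2 cultures of mouse pro-B cells, the B cell precursors of the bone marrow. The control culture carried undeleted Setdb1 alleles (Setdb1 C/C) and the other carried deleted alleles (Setdb1 Δ/Δ). SETDB1 is a histone methyltransferase that silences retroviral sequences. The cells of both genotypes carried a bcl2 transgene, were sorted by flow cytometry and had grown for 4 days with interleukin 7 at 5 ng/µl. The sources used here do not give the age, sex or strain of the animals, whether several were pooled, how the alleles were deleted, or the promoter of the transgene. Each genotype had 1 library, so every difference below is between 2 libraries, has no replicate check and carries no p-value. The libraries also differed in RNAs that mark sex, given below. Genotype and these marks of sex therefore cannot be told apart for any gene here, Scd1 included.

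Cells build cholesterol from acetyl-CoA through mevalonate, isoprenoid diphosphates, squalene and lanosterol, and fatty acids from acetyl-CoA through malonyl-CoA. The membrane-bound transcription factors SREBP1 and SREBP2 switch on these genes when sterols are low: SCAP escorts them from the endoplasmic reticulum to the Golgi for cleavage, and the INSIG proteins hold them back when sterols are plentiful. When sterols are in excess, the nuclear receptors called LXR switch on efflux pumps and Srebf1. Dividing lymphocyte precursors need both products for new membrane.

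The 4 promoters below hold the letters that these factors are known to bind, and are shown so that their genes' values can be read beside them. RefSeq starts (GRCm38.p6) were found for 25 of the 32 genes (not for Fdps, Fdft1, Sqle, Scd1, Scd2, Stard4 or Abcg1), with 33 promoters of 300 bases, running from 250 bases before the start to 50 after it. Each is written 5′ to 3′ on the strand of its gene. Capitals mark a match to TCACNCCAC, the core of the sterol regulatory element, in Hmgcs1, and to a spaced repeat of the kind bound by LXR with its partner RXR (GGTNA, any 5 letters, GGTNA) in the other promoters.
Hmgcs1 (chr13:119690101-119690400, plus strand): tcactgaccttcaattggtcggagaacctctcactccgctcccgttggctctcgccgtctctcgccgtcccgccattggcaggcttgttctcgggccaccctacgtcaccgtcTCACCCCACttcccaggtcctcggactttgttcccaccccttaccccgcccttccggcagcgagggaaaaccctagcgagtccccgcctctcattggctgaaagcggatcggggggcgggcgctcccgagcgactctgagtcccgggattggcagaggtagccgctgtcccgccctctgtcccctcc
Abca1 (chr4:53159846-53160145, minus strand): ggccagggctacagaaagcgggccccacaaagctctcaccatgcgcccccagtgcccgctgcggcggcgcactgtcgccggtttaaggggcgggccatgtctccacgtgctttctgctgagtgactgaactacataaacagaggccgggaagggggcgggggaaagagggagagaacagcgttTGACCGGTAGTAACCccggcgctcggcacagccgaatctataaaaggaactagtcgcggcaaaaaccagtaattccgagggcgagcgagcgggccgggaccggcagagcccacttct
Fasn (chr11:120824498-120824797, minus strand): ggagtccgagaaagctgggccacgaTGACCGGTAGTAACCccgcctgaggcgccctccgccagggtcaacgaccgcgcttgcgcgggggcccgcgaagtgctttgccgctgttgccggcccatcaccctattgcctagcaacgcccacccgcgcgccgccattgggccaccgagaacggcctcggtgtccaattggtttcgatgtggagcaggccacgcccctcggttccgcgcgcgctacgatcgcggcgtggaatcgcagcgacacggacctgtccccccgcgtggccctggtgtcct
Srebf1 (chr11:60210422-60210721, minus strand, 1 of its 3 listed starts): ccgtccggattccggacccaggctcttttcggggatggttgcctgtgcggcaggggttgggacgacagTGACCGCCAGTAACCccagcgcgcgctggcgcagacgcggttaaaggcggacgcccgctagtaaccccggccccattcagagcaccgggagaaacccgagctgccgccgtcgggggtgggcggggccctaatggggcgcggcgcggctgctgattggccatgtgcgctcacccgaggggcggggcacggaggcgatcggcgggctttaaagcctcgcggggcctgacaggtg
The Hmgcs1 match lies at -137 to -129 from the start, and the others are on the opposite strand at -67 to -53 (Abca1), -225 to -211 (Fasn) and -182 to -168 (Srebf1). Abca1 and Fasn carry the same 15 letters, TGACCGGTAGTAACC, and Srebf1 carries TGACCGCCAGTAACC.

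Both strands were searched, and no match in capitals overlapped another searched motif. TCACNCCAC was found in 1 of the 25 genes, against 1.44% of the 8865 measured genes with a promoter in the table, and in 1.24% of all 32851 promoters of that length. The LXR repeat was found in 3 of the 25 genes, against 0.564% of the measured genes and 0.718% of all promoters. TCACGTGA, the E-box form that SREBP also binds, was in none of the 25, in 2.40% of the measured genes and in 0.974% of all promoters. CCAAT, the box of NF-Y, which works beside SREBP at many of these genes, was in 20 of the 25 genes (80.0%), against 43.5% of the measured genes. By promoter the shares were 63.6% of 33 and 37.4% of all. GGGCGG, the GC box, was in 84.0% of the 25 genes and in 68.96% of the measured genes. These are matches of letters and do not show that a factor was bound.

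As a group these genes differed little between the libraries. A level is in RPKM (reads relative to transcript length and library depth, as deposited), and each gene is represented by its transcript with the highest mean, called its standing transcript. In 9 genes the standing transcript is not annotated as protein-coding: Acat2, Lss, Cyp51, Msmo1, Hsd17b7, Srebf1, Insig2, Fasn and Abca1. Its level there need not be that of the coding RNA. All 32 genes were measured, meaning that either library reached 1 RPKM. The rule of size, which takes the place of a test, calls a gene higher if log2((Δ/Δ + 0.5) / (C/C + 0.5)) of its RPKM reached 1, and lower if it reached -1. Of the 32 genes, 0 were called higher and 1, Scd1, was called lower. Of all 12556 measured genes, 6.28% were called higher and 6.66% lower. The median log2 ratio of the 32 genes was 0.02, beside -0.09 for all measured genes. In 17 genes the log2 ratio was above 0 and in 15 below. Its size, with direction ignored, had a median of 0.24 in the 32 genes and 0.36 in all measured genes, and stayed under 0.5 in 84.4% and 64.6% of them. In the 10750 measured protein-coding genes the values were 0.34 and 67.6%. The 32 genes were not compared with genes of like level.

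**Figure D1:**
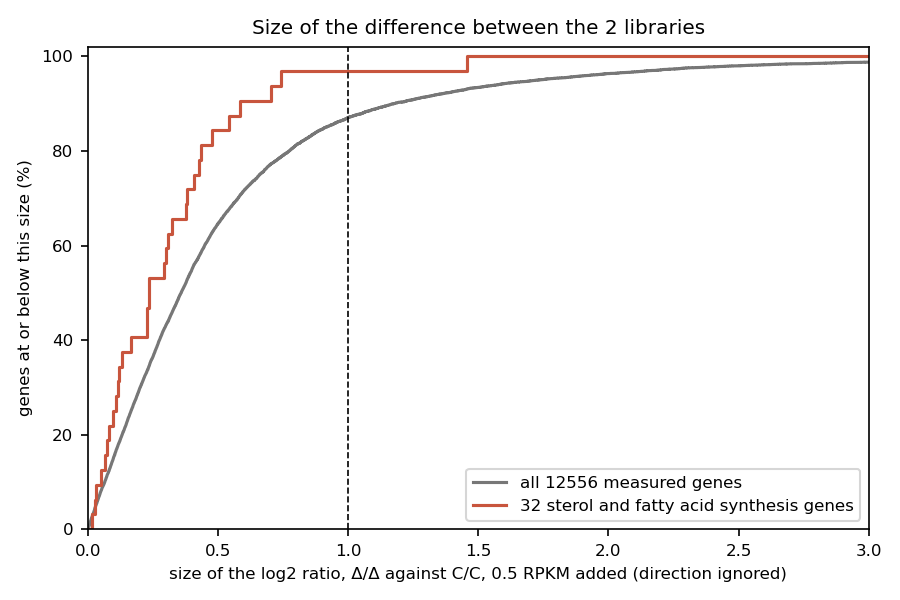
The share of genes (vertical axis, percent) whose log2 ratio between the libraries was at or below a given size (horizontal axis, direction ignored), for the 32 genes (red) and all 12556 measured genes (grey). The red curve lies above the grey one over most of its course and makes its last step at Scd1, past the dashed line of the 2-fold rule.

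The median level of the 32 genes was above that of all genes. It was 29.5 (C/C) and 34.2 (Δ/Δ) RPKM, against 10.7 and 10.1 RPKM for all measured genes. Fdps was the most abundant of the 32 in both libraries, Insig2 and Abca1 the least. Scd1 moved from rank 3 in C/C to rank 11 in Δ/Δ.

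**Figure D2:**
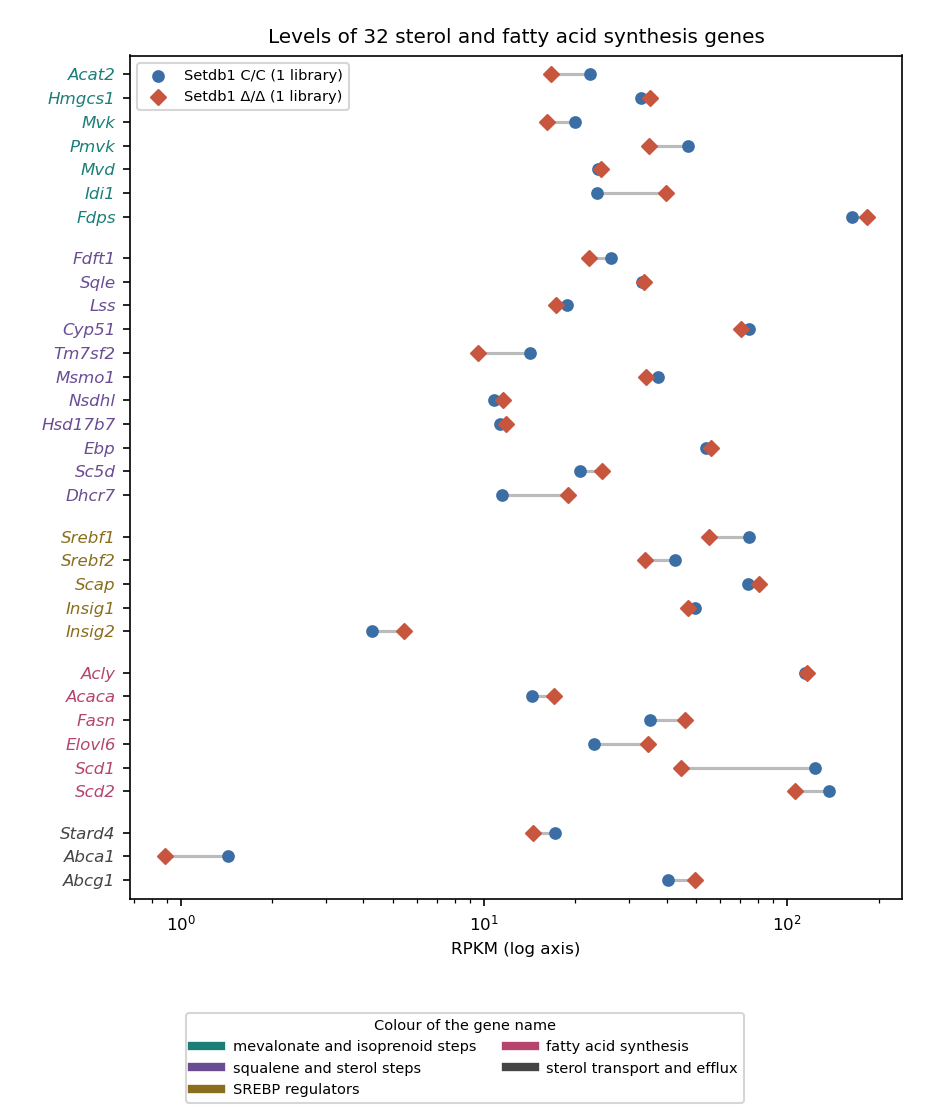
RPKM (horizontal log axis) of each of the 32 genes in the C/C library (blue circles) and the Δ/Δ library (red diamonds), with 1 library each and gene names coloured by role. Most pairs of points lie close together, and the longest line is that of Scd1, from 123 to 44.6 RPKM.

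Scd1 encodes the stearoyl-CoA desaturase that puts the double bond into oleate and palmitoleate. It measured 123 (C/C) and 44.6 (Δ/Δ) RPKM (ENSMUST00000041331, GRCm38 chromosome 19). That is 2.77-fold lower, a log2 ratio of -1.46, and 6.87% of all measured genes had a log2 ratio of larger size. Divided by its C/C level, the Δ/Δ level was 0.362, with an exact 95% interval of 0.356 to 0.367 from 101631 and 41623 recovered reads. This and the other intervals of ratios below take 2 reads as 1 fragment and cover counting error only, not the spread between cultures. In RNA of whole cultures, fewer cells that express a gene and less RNA per cell cannot be told apart.

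The difference was not shared alike by its close relative. Scd2, a desaturase gene of the same cluster on chromosome 19, measured 138 (C/C) and 106 (Δ/Δ) RPKM, a log2 ratio of -0.38 within the rule. Scd1 stood at 0.896 of the Scd2 level in C/C and at 0.422 of it in Δ/Δ. The remaining genes of the cluster are not among the 32 and were chosen after their values were seen. Scd4 went the other way, from 0.255 to 2.12 RPKM (144 and 1357 reads), a ratio of 8.33 with an interval of 6.51 to 10.8 and a log2 ratio of 1.80, past the rule. Scd3 was at 0.0140 and 0.00700 RPKM, from 8 and 5 reads. So the cluster held a lower gene, a higher gene from a low level, and an abundant gene within the rule. Exact sharing of sequence was small. Of the 101-base windows of the Scd1 transcript, the length of a read, 1.80% occur in Scd3, 0.993% in Scd2 and 0.338% in Scd4, and 2.62% in any other gene.

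The rest of fatty acid synthesis stood level or somewhat higher in Δ/Δ, within the rule. Acly, the ATP citrate lyase that supplies acetyl-CoA, measured 114 (C/C) and 117 (Δ/Δ) RPKM. Acaca, the acetyl-CoA carboxylase that makes malonyl-CoA, measured 14.4 and 16.95 RPKM. Fasn, the fatty acid synthase, measured 35.2 and 45.9 RPKM, a ratio of 1.31 (interval 1.24 to 1.38), by a short standing transcript with a retained intron. Its coding transcript of 10050 bases measured 30.1 and 40.9 RPKM, a ratio of 1.36. Elovl6, which lengthens palmitate to stearate, the substrate of the desaturases, measured 23.0 and 34.7 RPKM. Its ratio of 1.51 (interval 1.48 to 1.54) was the largest of this group, whose 6 genes had a median log2 ratio of 0.13. Elovl6 and Scd1, consecutive steps from palmitate to oleate, thus had ratios on opposite sides of 1.

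In the mevalonate and isoprenoid steps none of 7 genes passed the rule, and the median log2 ratio was 0.03. Acat2, which joins acetyl-CoA units, measured 22.3 (C/C) and 16.7 (Δ/Δ) RPKM. Its longest coding transcript measured 19.3 and 16.4 RPKM. Hmgcs1, the HMG-CoA synthase whose promoter holds the sterol regulatory element letters, measured 32.8 and 35.3 RPKM, a ratio of 1.08. The kinases that phosphorylate mevalonate were on the low side in Δ/Δ. Mvk measured 19.9 and 16.2 RPKM. Pmvk measured 47.1 and 34.9 RPKM, a ratio of 0.741 (interval 0.700 to 0.784). The next enzymes were level or higher. Mvd, the decarboxylase that makes isopentenyl diphosphate, measured 23.8 and 24.3 RPKM. Fdps, which makes farnesyl diphosphate, measured 163 and 183 RPKM.

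Idi1 had the highest log2 ratio of the 32 genes, still within the rule. It encodes the isomerase that turns isopentenyl into dimethylallyl diphosphate. It measured 23.6 (C/C) and 39.9 (Δ/Δ) RPKM, a log2 ratio of 0.74 and a ratio of 1.69 (interval 1.57 to 1.81). All 5 listed Idi1 transcripts were higher in Δ/Δ, with ratios from 1.53 to 1.73. The lowest belonged to the longest coding transcript of 3027 bases, at 15.3 and 23.4 RPKM. Its paralogue Idi2, named here after its value was seen, was at 0.0130 and 0.0140 RPKM.

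Most of the squalene and sterol steps lay close to a ratio of 1. The 11 genes had a median log2 ratio of 0.02, and none passed the rule. Fdft1, the squalene synthase, measured 26.2 (C/C) and 22.2 (Δ/Δ) RPKM. Sqle, the squalene epoxidase, measured 33.2 and 33.6 RPKM, and Lss, which closes the ring to lanosterol, 18.8 and 17.3 RPKM. The intervals of Sqle (0.981 to 1.04) and Lss (0.817 to 1.03) include 1. The longest coding Lss transcript measured 12.7 and 12.3 RPKM. Cyp51, the lanosterol demethylase, measured 74.6 and 70.5 RPKM. Its longest coding transcript stood on the other side of 1, at 33.9 and 39.0 RPKM. Msmo1, the sterol methyl oxidase, did the same, with 37.6 and 34.3 RPKM for the standing transcript and 23.5 and 28.2 RPKM for the longest coding one. For both genes the sign of the small difference therefore depended on the transcript.

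Further down the route, Nsdhl, a sterol dehydrogenase, measured 10.8 (C/C) and 11.6 (Δ/Δ) RPKM. Hsd17b7, the matching ketoreductase, measured 11.3 and 11.8 RPKM, and its longest coding transcript 4.65 and 5.24 RPKM. Ebp, the sterol isomerase, measured 54.1 and 56.0 RPKM. By their standing transcripts these genes differed by ratios of 1.03 to 1.07. Nsdhl and Ebp lie on the X chromosome, and the libraries differed in RNAs that mark sex. Xist, the RNA that silences an X chromosome in females, measured 0.0940 and 23.7 RPKM, and the Y-linked genes Ddx3y (10.2 and 0.00900 RPKM) and Eif2s3y (22.3 RPKM and listed at 0) went the other way. Genotype and these marks of sex cannot be told apart with 1 library each. Sc5d, the lathosterol oxidase, measured 20.7 and 24.4 RPKM. Added up, the 18 genes from Acat2 to Dhcr7 came to 646 (C/C) and 660.5 (Δ/Δ) RPKM.

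Dhcr7 and Tm7sf2 stood furthest from a ratio of 1 among the 11 squalene and sterol steps, in opposite directions and within the rule. Dhcr7, the reductase that finishes cholesterol, measured 11.4 (C/C) and 18.9 (Δ/Δ) RPKM, a log2 ratio of 0.70 and a ratio of 1.65 (interval 1.51 to 1.82). Its longest coding transcript gave 7.29 and 11.4 RPKM. The 9 measured Dhcr7 transcripts had ratios from 1.08 to 1.72, the lowest from a coding transcript at 2.04 and 2.20 RPKM. Another Dhcr7 transcript, below 1 RPKM in both libraries, went the other way, at 0.616 and 0.191 RPKM. Tm7sf2, a sterol reductase, measured 14.1 and 9.55 RPKM, a log2 ratio of -0.54, the lowest of those 11. The standing Tm7sf2 transcript shares 66.2% of its 101-base windows with Vps51, an overlapping gene. Its longest coding transcript shares none, and measured 5.80 and 2.94 RPKM, a ratio of 0.507 and a log2 ratio of -0.87. The other 13 of its 14 transcripts had ratios from 0.467 to 0.534. All 13 thus lay lower than the one that stood for the gene; sharing with Vps51 was counted only for the 2 transcripts named.

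**Figure D3:**
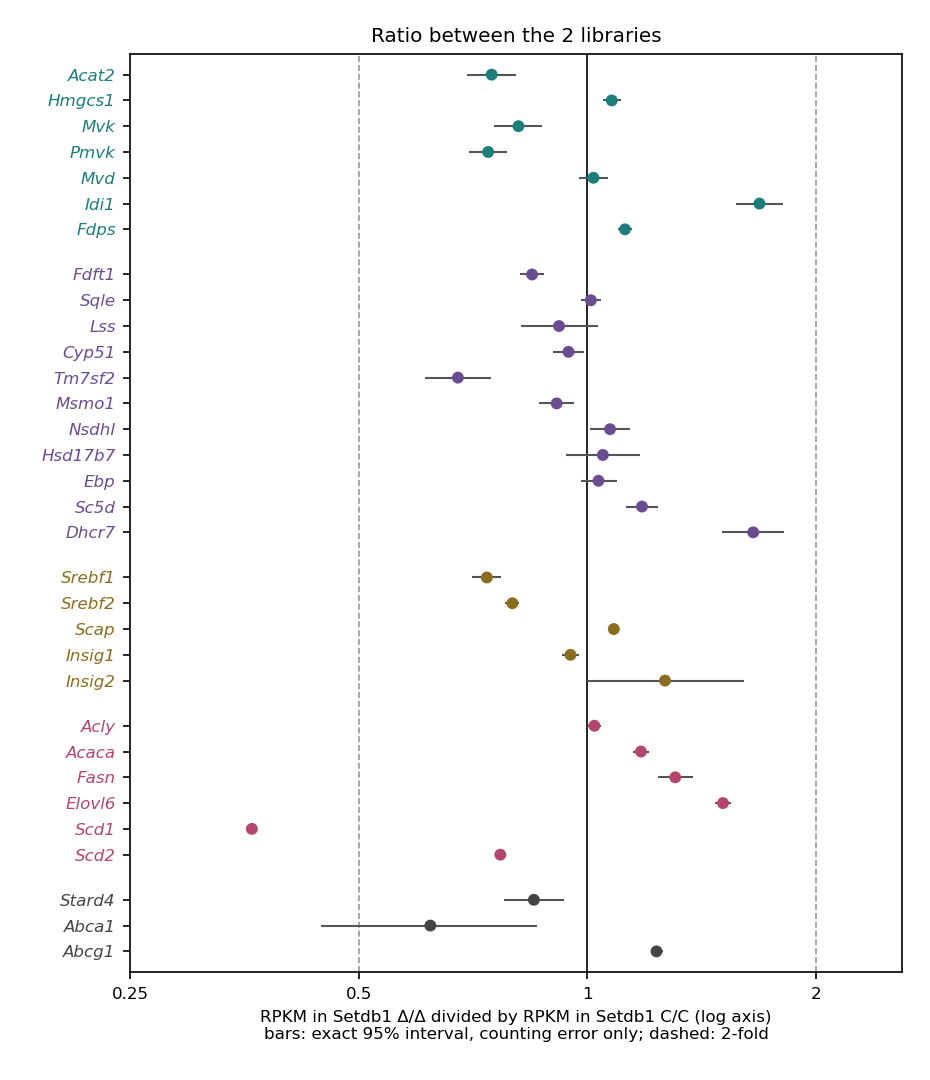
The ratio of RPKM in Δ/Δ to RPKM in C/C for each gene (horizontal log axis, black line at 1, dashed lines at 2-fold either way), with bars for the exact 95% counting interval and colours for the role of the gene. Scd1 at 0.362 is the point beyond the dashed lines, and Idi1, Dhcr7 and Elovl6 lie highest, at 1.51 to 1.69.

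The regulators differed by less than the rule, with a median log2 ratio of -0.07 over 5 genes that turned to 0.02 when ratios were centred on the median of all measured genes. Srebf1, which encodes SREBP1, measured 74.6 (C/C) and 55.0 (Δ/Δ) RPKM, a ratio of 0.738 (interval 0.706 to 0.771). All 12 Srebf1 transcripts were lower in Δ/Δ, with ratios from 0.647 to 0.798. The coding transcript that begins beside the LXR repeat printed above (ENSMUST00000144942) measured 55.9 and 41.0 RPKM. The one from an upstream start (ENSMUST00000020846) measured 47.4 and 35.4 RPKM. Their ratios of 0.734 and 0.746 were close, and the transcripts overlap on the genome, so these values do not tell the starts apart. Srebf2, which encodes SREBP2, the form that favours sterol genes, measured 42.7 and 34.0 RPKM, a ratio of 0.797 (interval 0.780 to 0.814).

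Scap, the escort, measured 74.4 (C/C) and 80.7 (Δ/Δ) RPKM. Insig1, itself a target of SREBP and a common readout of its activity, measured 49.7 and 47.2 RPKM, a ratio of 0.951. Insig2, the retaining protein that does not depend on SREBP, was far lower. Its standing transcript, a short one with a retained intron, measured 4.28 and 5.42 RPKM, with an interval of 0.999 to 1.61 from 244 and 350 reads. Its longest coding transcript measured 2.70 and 2.83 RPKM, and its 13 transcripts ranged from a ratio of 0.672 to 1.27. The direction for Insig2 therefore depended on the transcript. Insig1 exceeded Insig2 11.6-fold in C/C and 8.71-fold in Δ/Δ by the standing transcripts, and 18.4-fold and 16.7-fold by the longest coding ones.

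**Figure D4:**
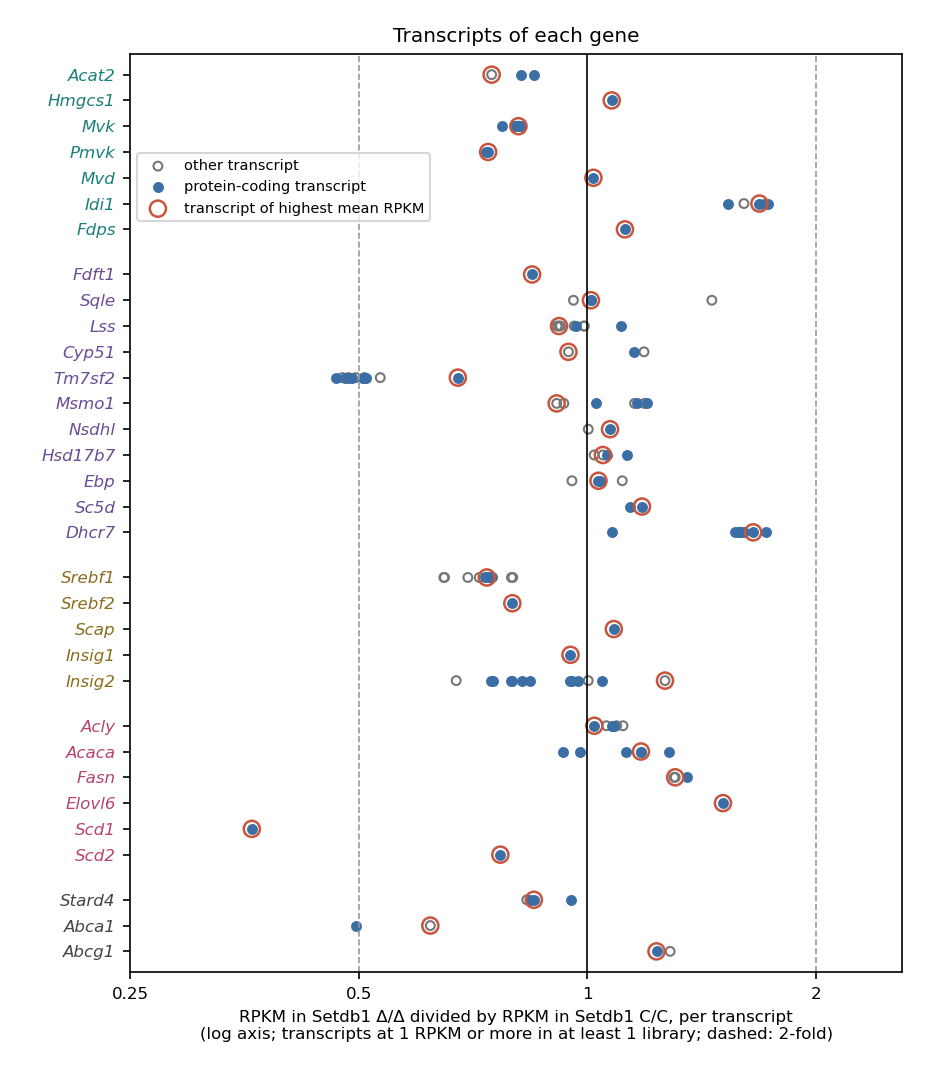
The ratio of RPKM in Δ/Δ to RPKM in C/C (horizontal log axis) for every listed transcript of each gene that reached 1 RPKM in either library, filled where protein-coding and open where not, with a red ring around the transcript that stands for the gene. Transcripts of Idi1 and Srebf1 keep to one side of 1, those of Insig2 lie on both sides, and the ringed Tm7sf2 transcript lies apart from the other 13.

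The genes of sterol transport did not move alike. Stard4, which carries sterol between membranes, measured 17.1 (C/C) and 14.5 (Δ/Δ) RPKM. Abcg1, an efflux pump, measured 40.3 and 49.8 RPKM, a ratio of 1.23 (interval 1.21 to 1.26). Abca1, the pump that loads apolipoprotein A-I, was near the lower limit at 1.43 and 0.888 RPKM, a ratio of 0.621 (interval 0.446 to 0.858) from 189 and 133 reads. Its longest coding transcript, of 10262 bases, measured 1.44 and 0.713 RPKM, a ratio of 0.496. Among the 25 genes whose promoters were searched, those with the LXR repeat had standing-transcript ratios below 1 (Abca1 and Srebf1) and above 1 (Fasn). Whether LXR acted at these genes was not tested.

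Other genes of sterol handling were counted from a list of 31, of which 29 were measured. In it 2 were higher, 1 was lower, and the median log2 ratio was 0.14. Of all 12556 measured genes 6.28% were higher and 6.66% lower, so these counts do not set the list apart. Apoe, the lipoprotein component made by macrophages and many other cells, measured 31.8 (C/C) and 87.9 (Δ/Δ) RPKM, a log2 ratio of 1.45. Nr1h3, which encodes LXRα, was higher from a low level, at 0.286 and 1.65 RPKM (28 and 183 reads). Mylip, an LXR target that marks lipoprotein receptors for breakdown, was lower, at 34.9 and 13.9 RPKM, a log2 ratio of -1.30. Lipa, the lysosomal lipase that frees cholesterol, measured 8.61 and 17.1 RPKM, short of the rule at 0.95 and past it at 1.04 after centring on the median of all measured genes. Nus1, a subunit of the enzyme that makes the precursor of dolichol, was named after its value was seen, at 3.76 and 7.52 RPKM, and likewise went from 0.91 to 1.01. After centring 4 of the 29 were thus higher and 1 lower, beside 906 higher and 728 lower of all 12556 measured genes. Mylip and Apoe, both known as LXR targets, passed the rule in opposite directions. The activity of LXR in these cultures was not tested.

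Of 29 further genes of fatty acid and lipid synthesis, 24 were measured, 1 was higher and 0 lower, with a median log2 ratio of -0.11. Beside this list and the oxidation genes below, 6.28% of all measured genes were higher and 6.66% lower. The higher gene of this list was Fads3, a relative of the fatty acid desaturases, at 3.16 (C/C) and 7.27 (Δ/Δ) RPKM. Acss2, which makes acetyl-CoA from acetate, measured 5.08 and 2.52 RPKM, Tecr, the last enzyme of fatty acid elongation, 189 and 109 RPKM, and Acsl4, an acyl-CoA synthetase, 5.89 and 10.1 RPKM. None of these passed the rule. Fatty acid oxidation, the opposite process, had 17 of 18 genes measured, 1 higher and 0 lower, with a median of 0.01. Acadm, the medium-chain acyl-CoA dehydrogenase, was the higher one, at 29.5 and 88.97 RPKM, a ratio of 3.02 (interval 2.84 to 3.20). The thiolase gene Acaa2 (22.1 and 37.1 RPKM) and the electron carrier gene Etfa (11.5 and 16.3 RPKM) followed within the rule.

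Several facts of the libraries stand beside these values. Setdb1 itself measured 17.0 (C/C) and 12.6 (Δ/Δ) RPKM over its whole transcript, which cannot show how complete the deletion was. Recovered depth was 170.6 M reads (M, mega) in C/C and 193.3 M in Δ/Δ. The marker counts that follow stand beside 6.28% of all measured genes higher and 6.66% lower. B lineage markers were abundant in both libraries, with 14 of 14 measured, 1 higher and 4 lower, and a summed level of 5909 and 5023 RPKM; Rag1 (27.3 and 6.64 RPKM), Cd79a (548 and 153 RPKM) and Vpreb2 (421 and 894 RPKM) differed most. Of 18 myeloid markers 15 were measured, 11 higher and 0 lower, summing to 140 and 393 RPKM, with Mpo and Elane listed at 0 in C/C and S100a8 (0.463 and 30.8 RPKM), Lyz2 (9.01 and 120 RPKM) and S100a9 (5.44 and 56.2 RPKM) furthest apart. Dendritic cell markers (4 of 8 measured, 4 higher, led by Klk1, Siglech and Ccr9) summed to 1.45 and 13.2 RPKM. Erythroid and platelet markers (6 of 12 measured, 5 higher, led by Hbb-bs, Hba-a1 and Hba-a2) summed to 7.73 and 74.1 RPKM, and T lineage markers (2 of 8 measured, both higher, Cd4 and Thy1) to 24.0 and 59.5 RPKM. The other T lineage markers, Cd3e, Cd3d, Cd3g, Cd8a, Trac and Bcl11b, stayed below 1 RPKM in both libraries. Which cells carried the RNA of these marker lists was not tested. Nor was the part of such cells in the values of Apoe, Nr1h3, Lipa, Scd1, Scd4 or any other gene here.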

How the data were processed

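RNA freed of ribosomal RNA was sequenced as 101-base paired-end reads from 1 library per genotype, per the labels' protocols. The deposited table holds RPKM values that the authors computed for 93615 Ensembl transcripts and rounded to 3 decimals; its column Wt was taken for C/C and Del for Δ/Δ. The submitters' processing notes name TopHat2 2.0.9, bedtools, mm9 and mm10. Not given in the sources used here: which build the table used, its annotation release, its strand setting and its handling of shared reads. The labels name no strand-marking step, so reads of overlapping genes on opposite strands may be mixed.

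Transcripts were matched by identifier to GENCODE M21 (GRCm38), which succeeded for 95.7%. Whole reads were recovered from RPKM times exonic length: 96.2% (C/C) and 95.5% (Δ/Δ) of low values of transcripts of 100 to 800 bases lay within 0.1 of a whole read. At these depths 3 reads on 2 kilobases are 0.00879 and 0.00776 RPKM. Depth recovery and the rule of size were tested on simulated data. No count test was run. Intervals are exact (Clopper-Pearson on the 2 counts) and take 2 reads as 1 fragment, because values of 2 reads outnumbered those of 1 read (662 and 601 transcripts in C/C). Alternatives varied the pseudocount, the filter, the scaling, the transcript and the fold of the rule.

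Members and lists were chosen with earlier results of these data known. Text names all 32 genes, Setdb1, the 4 most different genes of each of 3 companion lists (1 of these is not reported here) and up to 3 of each marker list; Nus1, Scd3, Scd4, Idi2, Xist, Ddx3y and Eif2s3y were looked up beside these. Analyses used Python 3.11.15, pandas 2.3.3 and scipy 1.17.1.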

Additional observations from a re-analysis of the deposited data

How the results depend on the processing

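Apart from the fold of the rule itself, no alternative changed which of the 32 genes passed: Scd1 was lower under all 9 other settings, with log2 ratios from -1.47 to -1.36, and no other gene passed. A 4-fold rule left 0 lower genes among the 32 (220 higher and 234 lower among all measured genes), and a 1.5-fold rule added 2 higher ones (1583 higher and 2101 lower among all). A filter of 5 RPKM gave 452 higher and 510 lower genes among all 9128 left, beside 788 and 836 among 12556 under the main filter. It turned the median of the sterol transport genes to 0.037, since Abca1 dropped out. Taking the longest protein-coding transcript, an alternative chosen after seeing the data, gave 554 higher and 462 lower genes among the 10411 left (genes without such a transcript drop out), and a median of -0.063 for sterol transport, the value of Stard4. The median of the 32 genes ranged from 0.01 to 0.12. Centring on the median of all measured genes moved every log2 ratio by 0.09 and gave 906 higher and 728 lower genes in all. The sign of the log2 ratio changed under at least 1 setting in 6 genes: Sqle, Cyp51, Msmo1, Ebp, Insig1 and Insig2. No paired analysis was possible because the groups have 1 library each and the result comes from no test, and for the same reason no library could be left out. Low read counts limit the standing transcripts of Abca1 and Insig2, which are short and had 133 to 350 reads. The longest coding transcripts of both genes are far longer and, at the RPKM given above, hold more reads. This limit therefore applies to the standing transcripts and their intervals.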

Other observations

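Some of the 32 genes share sequence with a neighbour or relative whose own level differed between the libraries. Of the 32 standing transcripts, 21 shared no 101-base window letter for letter with a transcript of another gene, and 6 shared more than 25% of their windows. Acat2 shares 51.0% of the windows of its standing transcript with Acat3, its neighbour on chromosome 17. Acat3, chosen after its value was seen, measured 22.1 (C/C) and 32.8 (Δ/Δ) RPKM, while Acat2 measured 22.3 and 16.7 RPKM, so the ratios of these relatives lay on opposite sides of 1. Fdft1 shares 24.3% of its windows with the overlapping protease gene Ctsb, which went from 48.1 to 96.4 RPKM while Fdft1 measured 26.2 and 22.2 RPKM. Fdps shares 66.0% with Gm43738, Acaca 45.0% with Gm5182 and Idi1 67.4% with the pseudogene Gm13502, which was at 0.206 and 0.446 RPKM. How the authors' counting divided such reads is not given in the sources used here, so values of Acat2, Fdft1, Fdps, Acaca, Idi1 and Tm7sf2 are less certain than their intervals show.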
